A study of Drosophila melanogaster with 9 samples.

Results

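Aminoacyl-tRNA synthetases and translation initiation factors were examined in RNA from whole Drosophila melanogaster larvae. The members are the genes whose symbol is a three-letter amino acid name, or GluPro, followed by RS or RS-m, together with those whose symbol starts with eIF, and they were chosen by name, not by any measured value. There were 77 such genes among 16988 named genes: 18 cytosolic synthetases, 15 mitochondrial synthetases and 44 initiation factors. The 3 genotypes were sequenced with 3 libraries each, made from pools of 20 larvae grown at 28 °C. The tuSz1 larvae come from a mutant strain known for an immune attack on its own fat body and for carrying linked changes in hop, the fly JAK kinase, and in GCS1, an enzyme of N-glycosylation. The hopTum larvae carry a gain-of-function allele of hop known for overproduction of blood cells and melanotic masses. The w1118 larvae, a white-eyed laboratory strain, served as the control. These are different strains, so a difference between them cannot be credited to the named allele alone, and neither the sex of the larvae nor their stage is given in the labels.

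A tRNA synthetase joins its amino acid to the matching tRNA, and most amino acids have one enzyme for the cytosol and another, encoded in the nucleus as well, for the mitochondrion. Initiation factors bring the ribosome and the first tRNA to the start codon. eIF2 carries the initiator tRNA, eIF2B reloads eIF2 with GTP, eIF3 is the large scaffold on the small ribosomal subunit, eIF4E binds the cap of the mRNA, eIF4G bridges cap and ribosome, and eIF4A unwinds the mRNA leader. The cytosolic synthetases and most of these factors are needed in every growing cell, and growing larval tissues are known to make them in bulk. In a pooled whole-larva sample, fewer cells of a kind and less RNA per cell cannot be told apart.

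Total counts ran from 9552828 to 14517286 per library, and the 77 genes together held between 0.596% and 1.38% of them. One library stood apart: the summed level of 6 salivary gland glue genes, given in CPM (counts scaled to a library size adjusted by the trimmed mean of M values, TMM), was 33.1 CPM in tuSz1 replicate 3, against 56050.0 and 57460.0 CPM in tuSz1 replicates 1 and 2, 12430.0 to 16540.0 CPM in hopTum and 47710.0 to 61620.0 CPM in w1118. Blood cell and fat body markers also differed between libraries. The 5 lamellocyte markers, genes of a blood cell type that encapsulates targets, summed to 2520.0 to 2690.0 CPM in tuSz1, 15570.0 to 17530.0 CPM in hopTum and 20.1 to 24.3 CPM in w1118, with atilla listed at 0 throughout. The 6 larval fat body markers summed to 74200.0 to 194600.0 CPM in tuSz1, 22030.0 to 78760.0 CPM in hopTum and 11790.0 to 23200.0 CPM in w1118, with Fbp1 listed at 0, and the 5 plasmatocyte markers to 27.3 to 70.3, 61.5 to 93.0 and 36.0 to 87.5 CPM in the same genotypes, with Hml listed at 0. Single markers differed within these sums. In tuSz1, hopTum and w1118, eater averaged 32.6, 51.1 and 61.0 CPM, NimC1 14.7, 20.0 and 6.28 CPM and Sr-CI 0.09, 9.42 and 0 CPM. Lsp1alpha and Lsp1gamma, with 1 listed transcript each, made up nearly all of the fat body sum, while Lsp1beta and Lsp2 have 2 and Fbp1 and Fbp2 3. The lamellocyte marker cher, with 10 listed transcripts and 3.32, 5.56 and 5.96 CPM, was not raised in these counts. Of the other markers named here, atilla, Hml and Sr-CI have 2 listed transcripts and NimC1 3. Genes with several listed transcripts were often poorly counted, as described below. A low or 0 value of such a marker does not show that it is absent or unchanged. The part of these marker shifts in the results that follow was not tested.

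How well a member was counted went with the number of transcripts listed for it. The deposited counts are per transcript, and how reads that fall in several transcripts of a gene were assigned is not given in the sources used here. The 34 members with 1 listed transcript held 95.1% of all counts of the 77 genes, and all 34 passed the filter on low counts, the lowest single count among them being 37 for eIF3f2. Of the 43 members with 2 or more listed transcripts, 18 passed the filter, 12 had between 1 and 61 counts over the 9 libraries, and 13 were listed at 0 in every library. Those listed at 0 were the synthetases GlyRS, IleRS, LysRS, SerRS, CysRS-m and ProRS-m and the initiation factors eIF2A, eIF2alpha, eIF2Bepsilon, eIF3h, eIF4E6, eIF4H2 and eIF5B. GlyRS, LysRS and eIF2alpha serve protein synthesis in every cell, so these genes can only be said to be listed at 0.

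The annotation gives a measure beside this. In the Ensembl gene models, which list the same number of transcripts as the RefSeq table for all 77 genes, the median number of exonic bases that lie in exactly 1 transcript was 106 for the 13 genes at 0, 212.5 for the 12 with few counts and 613.5 for the 18 that passed the filter, with overlapping ranges of 0 to 319, 39 to 376 and 76 to 4619. The helicase eIF4A, with 6 listed transcripts and 347 such bases, had 141 counts in all 9 libraries together. The cap-binding repressor eIF4EHP, with 4619 such bases, had 12747. Other members went the other way: MetRS-m, with 1977 such bases, had 79 counts, and eIF1A, with 562, had 14752. Whether these bases set the counts was not tested. The members fall into a well-counted group, nearly all with 1 listed transcript, and a tail whose counts run down to 0. The 34 members with 1 transcript are therefore described as a whole, since no filter removed any of them, and the other 43 gene by gene.

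**Figure D1:**
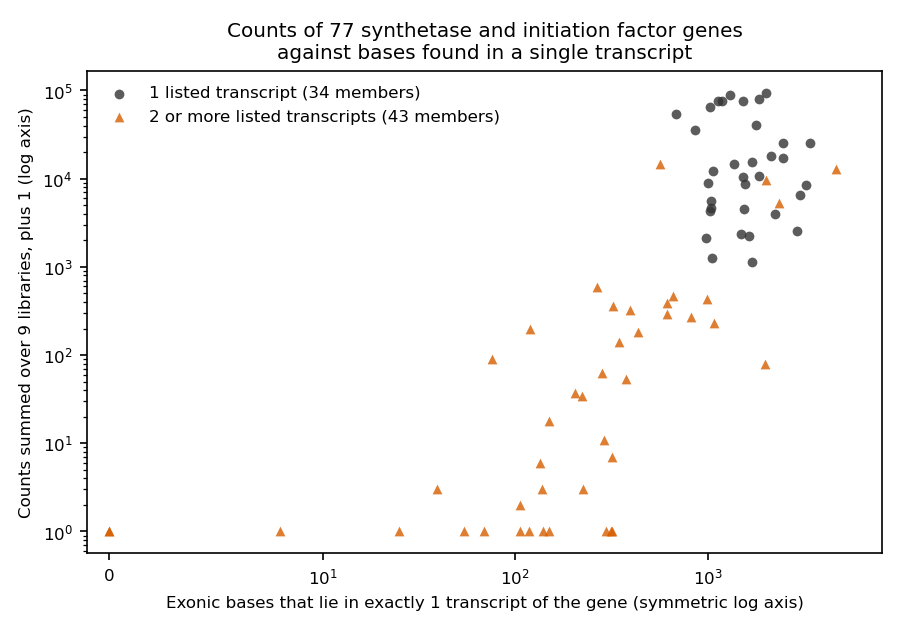
Counts of each of the 77 genes summed over 9 libraries, plus 1, on a log axis, against the number of exonic bases that lie in exactly 1 transcript of the gene, on a symmetric log axis. Circles are the 34 genes with 1 listed transcript and triangles the 43 with 2 or more, of which 13 lie at 0 counts.

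Per kilobase of transcript, and among members with 1 listed transcript, the initiation factors spanned a wider range than the synthetases. The median level of the 6 cytosolic synthetases with 1 transcript was 94.7 CPM per kilobase in tuSz1, 112 in hopTum and 58.3 in w1118. That of the 7 mitochondrial ones was 22.6 in tuSz1, 28.3 in hopTum and 13.6 in w1118, and that of the 21 initiation factors 109 in tuSz1, 153.5 in hopTum and 74.2 in w1118. In w1118 the ranges of these 3 groups were 39.4 to 121, 4.12 to 51.0 and 14.0 to 720.3 CPM per kilobase. In w1118 the order was led by eIF1, a small factor that guards start codon choice, at 720.3 ± 154 CPM per kilobase (SD, n = 3), followed by eIF3i at 464 ± 42.1 and eIF2beta at 462 ± 46.7. The w1118 order ended with the mitochondrial enzyme GluRS-m at 4.12 ± 0.368 CPM per kilobase. Among the synthetases with 1 listed transcript, TyrRS was the most abundant per kilobase in each of the 3 genotypes. It stood at 213 ± 44.9 in tuSz1, 359 ± 64.9 in hopTum and 121 ± 40.8 in w1118. Synthetases with several listed transcripts were not ranked.

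Most neighbours in this order could not be separated. Of 33 neighbouring pairs, the replicate values overlapped in 30 in tuSz1, 30 in hopTum and 28 in w1118. The 5 w1118 pairs that did not overlap were eIF1 above eIF3i, eIF3d1 above TyrRS, eIF4E4 above eIF3g2, AsnRS-m above IleRS-m and IleRS-m above GluRS-m. At the head of the order, hopTum was led by the eIF3 subunits eIF3f1 at 966 ± 146 and eIF3g1 at 932 ± 174 CPM per kilobase, with eIF1 in rank 5 at 783 ± 110.4, whereas eIF1 led in tuSz1 at 809 ± 139.9 and in w1118.

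**Figure D2:**
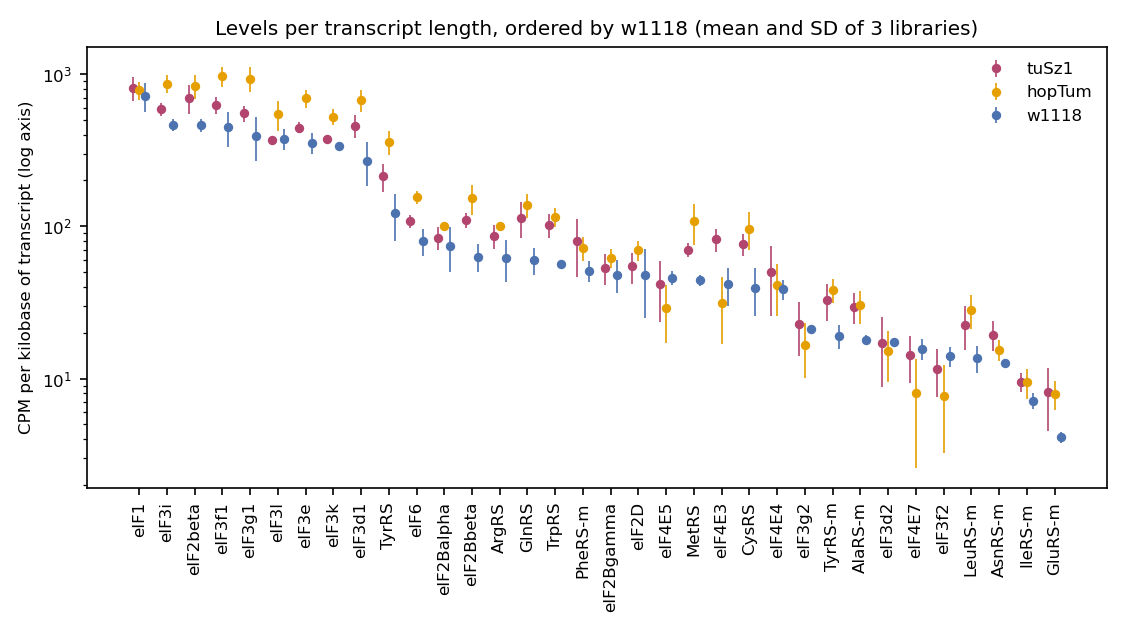
CPM per kilobase of transcript on a log axis for the 34 genes with 1 listed transcript, ordered by their w1118 mean. Points are means and bars the SD of 3 libraries, in tuSz1, hopTum and w1118 from left to right at each gene. The order runs from eIF1 at 720.3 CPM per kilobase in w1118 to GluRS-m at 4.12.

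Setting hopTum beside w1118 addresses which of these genes change where the hop kinase is overactive. Of the 9 cytosolic synthetases tested 6 rose in hopTum, and of the 8 eIF3 subunits tested, second copies aside, 5 rose. Those copies, eIF3d2, eIF3f2 and eIF3g2, were set aside after the values were seen. They had hopTum log2 fold changes of -0.21, -0.85 and -0.33 and were not called. Of the 52 members tested, 16 were called higher and 0 lower at an edgeR adjusted p under 0.05, where over all 9106 tested genes 18.1% were called, 11.5% higher and 6.65% lower. Without the adjustment, 22 of the 52 had a p under 0.05 and were higher and 1, the cap-binding protein gene eIF4E1, was lower, and DESeq2 called 17, all higher. Among the 34 members with 1 listed transcript, all of which were tested, 14 were called higher, or 41.2%, against 13.8% of all tested genes with 1 listed transcript. The 3 hopTum libraries lay above the 3 w1118 libraries for 21 of these 34, or 61.8%, and below them for 2, eIF3f2 and eIF4E5, against 24.0% above and 16.2% below over those genes.

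By role, the difference between the counts was not tested. Of the 6 cytosolic synthetases with 1 transcript, 5 rose in hopTum, and the median log2 fold change of the 6 was 1.25. Of the 7 mitochondrial synthetases 2 rose, with a median of 0.75, and of the 21 initiation factors 7 rose, with a median of 0.54. The median over all tested genes was -0.05, and over those with 1 listed transcript 0.05. Under scaling to total counts, which moved the median of all genes to -0.41, these medians stayed positive at 0.88, 0.38 and 0.16, while 4 members were called, GlnRS, TyrRS, eIF2Bbeta and eIF3d1, and 37.5% of all calls were higher, against 63.3% under TMM scaling, 50.7% with the 50 most counted genes left out and 51.0% with no filter on low counts. The number of members called was 3 without hopTum replicate 1, of which 2 were cytosolic synthetases and 1 an initiation factor, 5 without w1118 replicate 2 and 6 without w1118 replicate 3, and without hopTum replicate 1 the medians for mitochondrial synthetases and initiation factors were 0.47 and 0.35.

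TyrRS, which charges tRNA with tyrosine, lies at chr3L:16417349-16419302 on the minus strand (build dm6, as are all positions here) and shares no exonic base with another gene. Its level was 331, 330.4 and 468 CPM in tuSz1, 750.3, 638 and 521 CPM in hopTum and 292, 203 and 149 CPM in w1118. Every hopTum library lay above every library of the other genotypes, and every tuSz1 library above every w1118 library. Between hopTum and w1118 the log2 fold change was 1.57 (SE 0.32, edgeR adjusted p = 0.00626), which passed the threshold in all 15 alternative fits, with log2 fold changes of 1.19 to 1.85. The adjoining gene on the same strand, the mitochondrial synthetase GluRS-m at chr3L:16415292-16417177, which shares 5.6% of its exonic bases with Serinc on the other strand, had 8.56, 12.3 and 20.5 CPM in tuSz1, 16.8, 12.9 and 10.9 CPM in hopTum and 7.57, 6.33 and 7.09 CPM in w1118. Its mutant libraries also lay above the w1118 ones, but its difference did not pass the threshold (log2 fold change 0.95 in hopTum, SE 0.39, edgeR adjusted p = 0.111).

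MetRS, on arm 2R, charges tRNA with methionine, the initiator tRNA included. It was at 212, 245 and 261 CPM in tuSz1, 472, 250.5 and 384 CPM in hopTum and 153, 161 and 137 CPM in w1118. All mutant libraries lay above all w1118 libraries, and hopTum replicate 2 fell within the tuSz1 range. MetRS was higher in hopTum by a log2 fold change of 1.29 (SE 0.28, edgeR adjusted p = 0.00805), a call that held in all 6 fits that left out 1 library and was lost under total count scaling (0.94, edgeR adjusted p = 0.0609). CysRS, the cysteine enzyme, also on arm 2R, had 154, 192 and 217 CPM in tuSz1, 300.4, 167 and 244 CPM in hopTum and 129.5, 98.1 and 62.5 CPM in w1118. The hopTum and w1118 libraries did not overlap, and the log2 fold change was 1.29 (SE 0.32, edgeR adjusted p = 0.0169). The CysRS call was lost without hopTum replicate 1, w1118 replicate 2 or w1118 replicate 3, with edgeR adjusted p up to 0.0846.

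The other cytosolic enzymes had smaller differences. GlnRS at chr3R:25263267-25265721 on the minus strand was at 224, 251 and 365 CPM in tuSz1, 399, 341 and 277 CPM in hopTum and 176, 148 and 117 CPM in w1118. TrpRS at chr3R:9265027-9266904 on the minus strand was at 149.9, 160.2 and 208 CPM in tuSz1, 227, 176 and 179 CPM in hopTum and 91.8, 98.9 and 95.8 CPM in w1118. For both genes every mutant library lay above every w1118 library. The hopTum log2 fold changes were 1.21 for GlnRS (SE 0.29, edgeR adjusted p = 0.0136) and 1.02 for TrpRS (SE 0.23, edgeR adjusted p = 0.0112). The GlnRS call was lost without hopTum replicate 1, w1118 replicate 2 or w1118 replicate 3, and the TrpRS call without hopTum replicate 1. ArgRS, the only one of the 6 not called, averaged 215 ± 4.26 CPM in hopTum and 133 ± 41.3 CPM in w1118 (SD, n = 3 each; log2 fold change 0.69, SE 0.27, edgeR adjusted p = 0.0974).

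**Figure D3:**
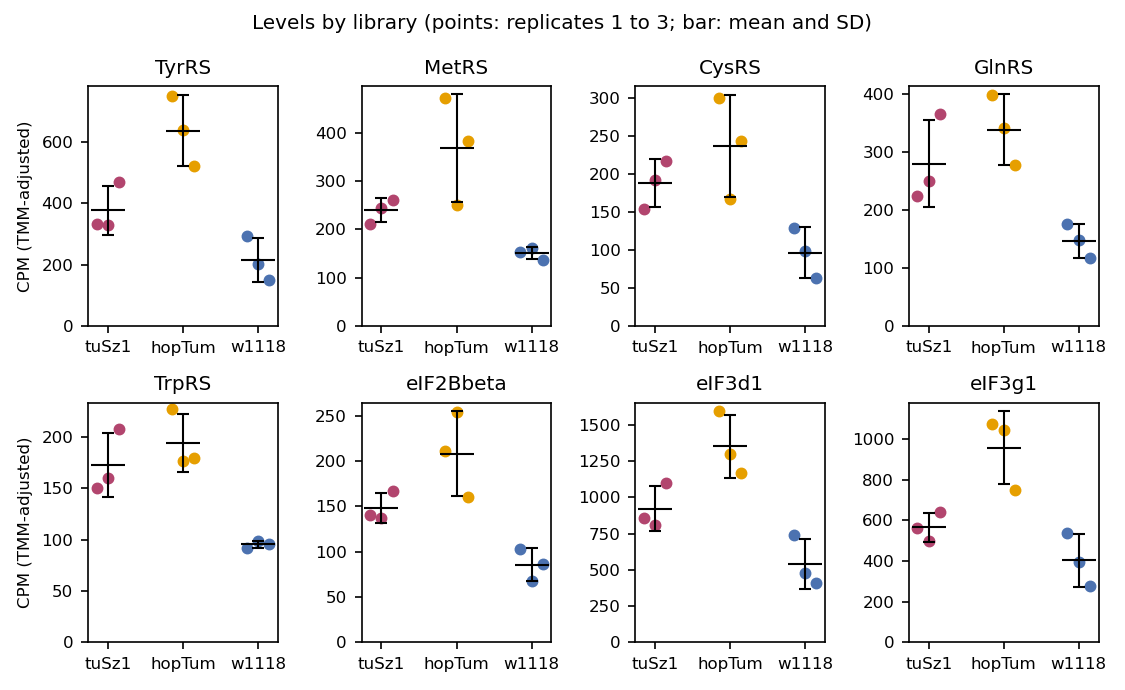
Levels in TMM-adjusted CPM of 8 genes by genotype, tuSz1, hopTum and w1118 from left to right, with each axis starting at 0. Points are replicates 1 to 3 and the bar is their mean and SD. For every gene shown the hopTum points lie above the w1118 points, and TyrRS, eIF3d1 and eIF3g1 also lie above the tuSz1 points.

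Synthetases with several listed transcripts gave little. AsnRS rose in hopTum, with averages of 2.28 ± 0.862 CPM in tuSz1 and 6.03 ± 1.65 CPM in hopTum (SD, n = 3 each) and levels between 1.18 and 2.17 CPM in w1118 (hopTum log2 fold change 1.90, SE 0.49, edgeR adjusted p = 0.0204). Its counts came from 1 of 2 listed transcripts and reached 327 over 9 libraries, and the call was lost without hopTum replicate 1, hopTum replicate 3, w1118 replicate 1 or w1118 replicate 2. GluProRS, a fused enzyme for glutamate and proline, averaged 62.8 ± 23.2 CPM in tuSz1, 60.6 ± 25.6 CPM in hopTum and 34.6 ± 10.9 CPM in w1118 with overlapping libraries, and HisRS averaged between 2.11 and 4.08 CPM. AlaRS, AspRS, LeuRS, ThrRS and ValRS had too few counts to be tested.

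Among mitochondrial synthetases, LeuRS-m averaged 68.3 ± 21.8 CPM in tuSz1, 85.3 ± 21.1 CPM in hopTum and 41.1 ± 8.47 CPM in w1118, and TyrRS-m 50.3 ± 13.6 CPM in tuSz1, 58.8 ± 10.5 CPM in hopTum and 29.4 ± 5.35 CPM in w1118. These were the 2 that rose in hopTum, by log2 fold changes of 1.05 (SE 0.30, edgeR adjusted p = 0.0300) and 1.00 (SE 0.28, edgeR adjusted p = 0.0287). Each call was lost without hopTum replicate 1, w1118 replicate 2 or w1118 replicate 3, and that of LeuRS-m also without w1118 replicate 1. AlaRS-m, PheRS-m, IleRS-m and AsnRS-m had hopTum log2 fold changes of 0.75, 0.50, 0.41 and 0.28, none of which passed. ArgRS-m, AspRS-m, MetRS-m, SerRS-m and TrpRS-m, with several transcripts each and means of at most 7.03 CPM, were tested without a call, and ValRS-m had too few counts to be tested.

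Of the 7 subunit genes of the eIF3 scaffold with 1 transcript, leaving aside the second copies described below, 5 rose in hopTum, the hopTum libraries lay above the w1118 libraries for all 7, and the median log2 fold change was 0.97. Their summed level was 4462, 4355 and 5174 CPM in tuSz1, 8129, 7039 and 6073 CPM in hopTum and 3906, 3578 and 3271 CPM in w1118. The lowest hopTum sum was above the highest of either other genotype. All 7 stayed positive under total count scaling, with a median of 0.57 and 1 call, while 0 were called without hopTum replicate 1, w1118 replicate 2 or w1118 replicate 3.

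The subunit eIF3d1, which can itself bind the cap of some mRNAs in human cells, lies at chr3R:23680039-23682317 on the plus strand. It was at 857, 809.8 and 1101 CPM in tuSz1, 1594, 1298 and 1169 CPM in hopTum and 739, 480.0 and 409 CPM in w1118 (hopTum log2 fold change 1.32, SE 0.32, edgeR adjusted p = 0.0150). eIF3g1, an RNA-binding subunit at chrX:2609247-2610336 on the minus strand, was at 559.7, 499 and 639 CPM in tuSz1, 1075, 1044 and 751 CPM in hopTum and 538, 397 and 278 CPM in w1118 (log2 fold change 1.24, SE 0.31, edgeR adjusted p = 0.0189). For both, w1118 replicate 1 was the highest of its genotype, and for eIF3g1 it lay above the lowest tuSz1 library, so that tuSz1 and w1118 overlapped. The other called subunits were eIF3f1 at 1.11, eIF3e at 0.97 and eIF3i at 0.90 on the log2 scale, and eIF3k at 0.64 and eIF3l at 0.54 did not pass. The calls of eIF3e and eIF3i were the least firm, holding in 4 and 3 of 15 alternative fits. Of the remaining 6 eIF3 genes, all with several transcripts, eIF3a averaged 0.818 to 2.88 CPM by genotype without a call, eIF3b, eIF3c, eIF3j and eIF3m had too few counts and eIF3h was listed at 0.

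Around eIF2, the genes called were those for 2 subunits of its exchange factor, eIF2Bbeta and eIF2Bdelta. eIF2Bbeta lies at chrX:2704571-2706217 on the plus strand and shares 4.9% of its exonic bases with CG2680 on the other strand, and whether the counting used strand is not given in the sources used here. It had 141, 137 and 167 CPM in tuSz1, 211, 254 and 160.0 CPM in hopTum and 103, 67.2 and 86.7 CPM in w1118. All mutant libraries lay above all w1118 libraries. The hopTum log2 fold change was 1.28 (SE 0.26, edgeR adjusted p = 0.00638), and like that of TyrRS it passed in all 15 alternative fits, with values of 0.88 to 1.44. Its sister subunits eIF2Balpha and eIF2Bgamma had 0.44 (SE 0.26) and 0.37 (SE 0.26) and did not pass. eIF2Bdelta was called at 2.27 (SE 0.72, edgeR adjusted p = 0.0476) on 90 counts from 1 of 4 listed transcripts, with 2.04, 1.41 and 2.37 CPM in hopTum and 0.221, 0.733 and 0.217 CPM in w1118. That call was lost in all 6 fits without 1 library. eIF2beta, a subunit of eIF2 itself, averaged 787 ± 175 CPM in tuSz1, 944 ± 168 CPM in hopTum and 521 ± 52.7 CPM in w1118, with a hopTum log2 fold change of 0.86 (SE 0.29, edgeR adjusted p = 0.0589), and its partner eIF2gamma had too few counts.

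eIF6, which keeps the large ribosomal subunit from joining too early, rose to 164 ± 16.2 CPM in hopTum, against 84.3 ± 17.0 CPM in w1118 (SD, n = 3 each; log2 fold change 0.96, SE 0.23, edgeR adjusted p = 0.0163). Its call was lost without hopTum replicate 1 or w1118 replicate 3, and also under total count scaling and with no filter on low counts. eIF1 averaged 533 ± 75.2 CPM in hopTum and 490.5 ± 105 CPM in w1118, a log2 fold change of 0.12 (SE 0.28). eIF4EHP, which competes with eIF4E for the cap and represses the mRNA it binds, averaged 119 ± 23.5 CPM in tuSz1, 157 ± 17.4 CPM in hopTum and 98.3 ± 7.16 CPM in w1118 (hopTum log2 fold change 0.68, SE 0.23, edgeR adjusted p = 0.0622). All 4 of its listed transcripts had counts. The most counted, with 58.6% of the gene's counts, was at 79.2, 48.6 and 88.7 CPM in tuSz1, 76.9, 92.8 and 95.0 CPM in hopTum and 60.1, 61.9 and 56.0 CPM in w1118, with every hopTum library above w1118 and tuSz1 overlapping both. The second most counted of them was at 20.6, 24.8 and 34.1 CPM in tuSz1, 36.0, 48.6 and 42.6 CPM in hopTum and 14.8, 20.5 and 15.3 CPM in w1118. The third was at 19.2, 21.2 and 19.4 CPM in tuSz1, 24.3, 28.9 and 26.1 CPM in hopTum and 19.3, 23.5 and 21.8 CPM in w1118. In these other transcripts, the second and the third, every hopTum library lay above all others, and single transcripts were not tested. The gene shares 7.0% of its exonic bases with Syx1A on the same strand.

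**Figure D4:**
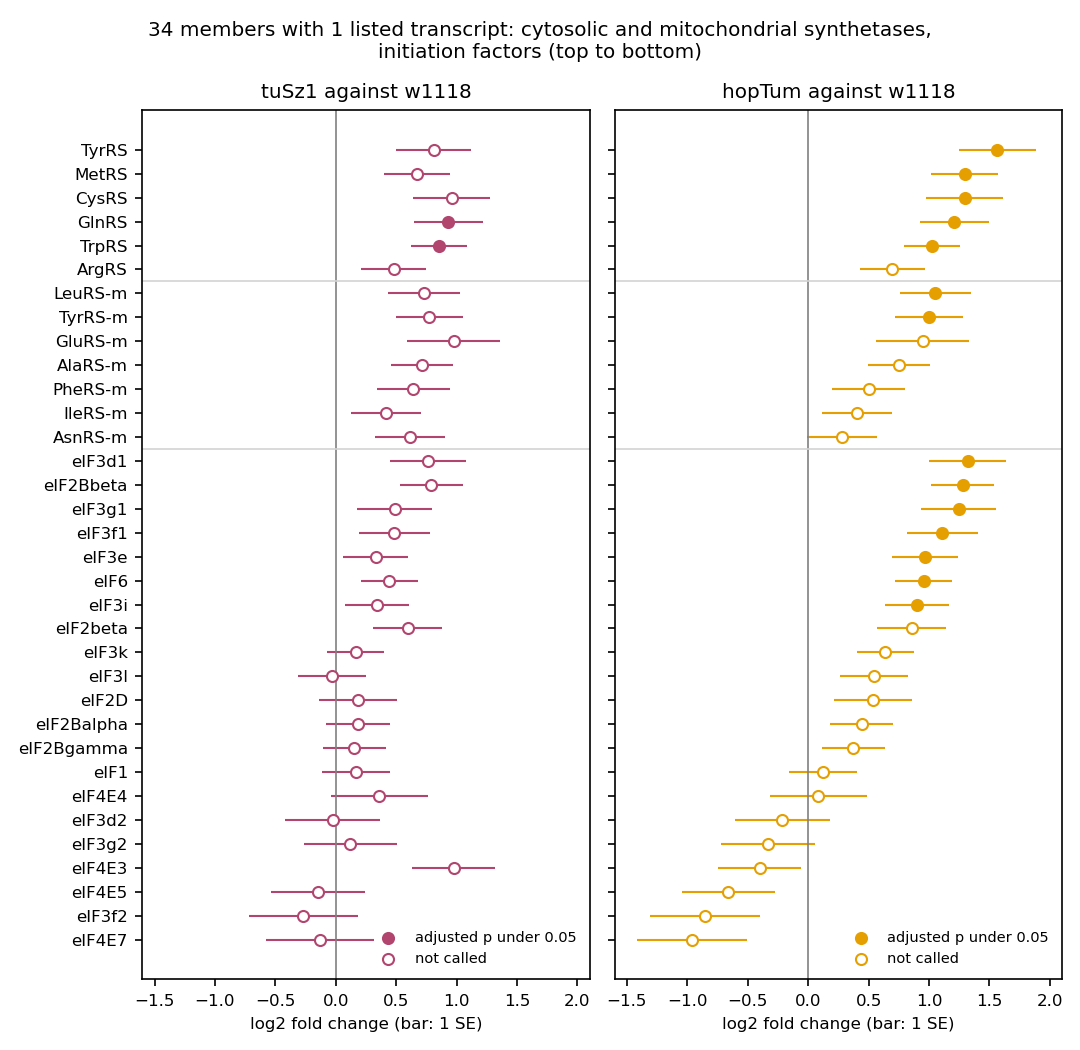
Log2 fold change from the edgeR fit, with 1 SE, of the 34 genes with 1 listed transcript, for tuSz1 against w1118 (left) and hopTum against w1118 (right). Filled points have an adjusted p under 0.05. From top to bottom are 6 cytosolic synthetases, 7 mitochondrial synthetases and 21 initiation factors. In hopTum 14 points are filled and in tuSz1 the 2 of GlnRS and TrpRS.

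The comparison of tuSz1 with w1118 asks the same of the strain that attacks its own tissue, and shares its control libraries with the comparison above. Few members passed, and those were cytosolic synthetases. GlnRS and TrpRS were called higher, with log2 fold changes of 0.93 (SE 0.28, edgeR adjusted p = 0.0433) and 0.86 (SE 0.23, edgeR adjusted p = 0.0260), and 0 of the 52 members tested were called lower. Over all tested genes 16.3% were called, 9.98% higher and 6.33% lower, and 12.4% of those with 1 listed transcript were called higher, against 2 of 34 members or 5.88%. Without the adjustment 13 members had a p under 0.05 and were higher and 1, eIF4G2, was lower, and DESeq2 called 1, TrpRS. Both calls are fragile. That of GlnRS was lost in all 9 alternative fits that kept every library and in 4 of 6 that left 1 out, and that of TrpRS in 6 of 9 and in all but the fit without tuSz1 replicate 1. The number of members called was 5 without w1118 replicate 1 and 0 without w1118 replicate 2, w1118 replicate 3, tuSz1 replicate 2 or tuSz1 replicate 3.

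By role, the median log2 fold changes in tuSz1 were 0.83 for the 6 cytosolic synthetases with 1 transcript, 0.72 for the 7 mitochondrial ones and 0.19 for the 21 initiation factors, beside 0.08 over all tested genes and 0.18 over those with 1 listed transcript. Under total count scaling the medians were 0.01, -0.12 and -0.59, and that of all tested genes was -0.70, so the direction flips with the scaling for mitochondrial synthetases and initiation factors. Relative to the median of all genes the 3 roles stood at 0.75, 0.64 and 0.11 under TMM scaling and at 0.71, 0.57 and 0.11 under total count scaling. Of all calls, 61.2% were higher under TMM scaling, 19.8% under total count scaling, 48.4% with the 50 most counted genes left out, 49.9% with no filter and 47.6% in the fit of the 6 libraries. Under total count scaling the 2 members called were eIF1A and eIF4G2, both lower. Without tuSz1 replicate 3, the library with almost no glue gene counts, the mitochondrial median was 0.45, and the median of the initiation factors was 0.29 without w1118 replicate 3 and 0.28 without tuSz1 replicate 1.

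The tuSz1 libraries lay above the w1118 libraries for 19 of the 34 members with 1 transcript, or 55.9%, and below them for 0, where over all tested genes with 1 listed transcript 25.6% lay above and 13.5% below. Among the 19 were 5 of 6 cytosolic and 6 of 7 mitochondrial synthetases, with ArgRS and PheRS-m as the exceptions, and 8 of 21 initiation factors. AlaRS-m, the mitochondrial alanine enzyme, was at 81.3, 84.6 and 121 CPM in tuSz1, 125, 77.8 and 91.7 CPM in hopTum and 58.4, 62.5 and 54.0 CPM in w1118. Both mutants were clear of w1118 and overlapped each other, with log2 fold changes of 0.72 (SE 0.26, edgeR adjusted p = 0.0768) in tuSz1 and 0.75 (SE 0.26, edgeR adjusted p = 0.0622) in hopTum.

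eIF4G2, a form of the cap-to-ribosome bridge known for its part in male meiosis in flies, had 78.6, 62.4 and 63.9 CPM in tuSz1, 82.1, 114 and 106 CPM in hopTum and 97.6, 112 and 92.8 CPM in w1118. The tuSz1 libraries were below those of both other genotypes, by a log2 fold change of -0.56 against w1118 (SE 0.23, edgeR adjusted p = 0.115) and of -0.56 against hopTum (SE 0.23, edgeR adjusted p = 0.155). Against w1118 it was called lower when genes were kept by a mean count of at least 50. All its counts came from 1 of 2 listed transcripts, and 8.6% of its exonic bases overlap another gene. eIF1A, which works beside eIF1 in scanning, averaged 118 ± 16.3 CPM in tuSz1, 176 ± 39.1 CPM in hopTum and 132 ± 13.8 CPM in w1118 with counts from 1 of 3 transcripts, and did not pass in any of the 3 comparisons.

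In the direct comparison of tuSz1 with hopTum, 1 of the 52 members was called, eIF4E3, which was higher in tuSz1. Over all tested genes 9.66% were called, 5.52% higher and 4.14% lower, and 6.51% of those with 1 listed transcript were called higher. Without the adjustment 1 member was higher and 10 were lower in tuSz1 at a p under 0.05, and DESeq2 called AsnRS and eIF2Bdelta lower beside eIF4E3. The tuSz1 libraries lay below the hopTum libraries for 9 of the 34 members with 1 transcript and above them for 1, where over those genes 15.9% lay below and 14.9% above. The 9 were TyrRS, eIF6 and all 7 eIF3 subunits. The median log2 fold change of these 7 was -0.57 beside 0.03 over all tested genes, and 0 of the 7 passed the threshold, with eIF3g1 at -0.76 (SE 0.31, edgeR adjusted p = 0.161) and eIF3d1 at -0.55 (SE 0.31, edgeR adjusted p = 0.310). For the 6 cytosolic synthetases the median was -0.31, and for the 7 mitochondrial ones it was 0.01.

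This comparison too depended on the scaling. Under total count scaling 16 members were called, all lower in tuSz1, among them the 7 eIF3 subunits, TyrRS and MetRS, and the median of all genes was -0.39, against 0.03 under TMM scaling. Relative to all genes the eIF3 median was -0.60 under total count scaling. Of all calls, 57.2% were higher under TMM scaling and 27.6% under total count scaling. The number of members called was 0 without hopTum replicate 1, hopTum replicate 2, tuSz1 replicate 1 or tuSz1 replicate 2, and the cytosolic median was -0.48 without tuSz1 replicate 3, -0.17 without tuSz1 replicate 1 and -0.20 without hopTum replicate 1. The mitochondrial median ran from -0.24 without tuSz1 replicate 3 to 0.16 without hopTum replicate 1.

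The members with 1 listed transcript include 7 second copies of a factor: eIF3d2, eIF3f2 and eIF3g2, and the eIF4E paralogs eIF4E3, eIF4E4, eIF4E5 and eIF4E7. The related eIF4E6, eIF4EHP, eIF4G2 and eIF4H2, with several listed transcripts, are not in this group. Of these, eIF4E6 and eIF4H2 were listed at 0, and eIF4EHP and eIF4G2 had hopTum log2 fold changes against w1118 of 0.68 and -0.002. The 7 copies were grouped after their values were seen. eIF4E3 is known in flies for its part in male meiosis, and these copies were set beside testis markers for that reason. Their summed level was 305.6, 351 and 169 CPM in tuSz1, 113, 160.6 and 255 CPM in hopTum and 204, 229.5 and 258 CPM in w1118. The summed level of 13 testis and spermatocyte markers, with dj and twe among them listed at 0, was 164, 197 and 106 CPM in tuSz1, 94.8, 84.9 and 182 CPM in hopTum and 137, 159.5 and 155 CPM in w1118. The 3 lowest libraries were the same by both sums: tuSz1 replicate 3 and hopTum replicates 1 and 2.

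The sum of the 7 copies averaged 275 ± 94.9 CPM in tuSz1, 176 ± 72.3 CPM in hopTum and 230.4 ± 27.1 CPM in w1118 (SD, n = 3 each). Of the 9 testis markers tested, topi rose and sa fell in hopTum, with log2 fold changes of 1.26 (SE 0.36, edgeR adjusted p = 0.0328) and -1.47 (SE 0.42, edgeR adjusted p = 0.0320), and 0 were called in the other comparisons by edgeR. Both calls depended on single libraries, that of topi being lost without hopTum replicate 1, hopTum replicate 3, w1118 replicate 2 or w1118 replicate 3, and that of sa in every such fit but the one without hopTum replicate 3. The male-specific roX1 and roX2 RNAs, which belong to dosage compensation of the X chromosome, summed to 10.1, 5.07 and 3.46 CPM in tuSz1, 1.74, 2.17 and 1.93 CPM in hopTum and 9.56, 10.7 and 5.79 CPM in w1118. Of these, roX1 fell in hopTum (log2 fold change -2.57, SE 0.61, edgeR adjusted p = 0.0137), a call lost without hopTum replicate 1 or w1118 replicate 2. roX1 and roX2 have 5 and 6 listed transcripts, and roX1 had 9, 18 and 12 counts in the hopTum libraries. Such low counts of genes with several transcripts cannot be read as the share of males. The part of testis content or of the sex of the pooled larvae in the values of the copies was not tested.

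eIF4E3 at chr3L:8229224-8230568 on the plus strand had 85.0, 100.1 and 70.9 CPM in tuSz1, 21.4, 27.1 and 50.1 CPM in hopTum and 29.9, 46.3 and 54.1 CPM in w1118. All tuSz1 libraries lay above all others, tuSz1 replicate 3 with its low testis marker sum included. The log2 fold change was 1.38 against hopTum (SE 0.35, edgeR adjusted p = 0.0279) and 0.97 against w1118 (SE 0.34, edgeR adjusted p = 0.0733). The call against hopTum held in 8 of 9 alternative fits that kept every library, the exception being total count scaling (0.93, edgeR adjusted p = 0.163), and in the 2 fits without tuSz1 replicate 3 or hopTum replicate 3. It was lost in the other 4, with edgeR adjusted p up to 0.0943.

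The other eIF4E paralogs overlapped between tuSz1 and hopTum. eIF4E4 averaged 51.4 ± 24.9, 42.4 ± 15.7 and 40.0 ± 6.02 CPM in tuSz1, hopTum and w1118. eIF4E5 averaged 42.4 ± 18.2 CPM in tuSz1, 29.7 ± 12.2 CPM in hopTum and 46.9 ± 5.08 CPM in w1118, and eIF4E7 23.4 ± 7.99 CPM in tuSz1, 13.1 ± 8.87 CPM in hopTum and 25.6 ± 4.01 CPM in w1118. Against w1118, eIF4E7 had a hopTum log2 fold change of -0.96 (SE 0.45, edgeR adjusted p = 0.166) and was called lower when hopTum replicate 3, the hopTum library with the highest testis marker sum, was left out. The canonical eIF4E1, with 9 listed transcripts, averaged 3.66 ± 0.736 CPM in tuSz1, 2.02 ± 0.938 CPM in hopTum and 4.28 ± 0.398 CPM in w1118 on 356 counts in all, and did not pass.

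**Figure D5:**
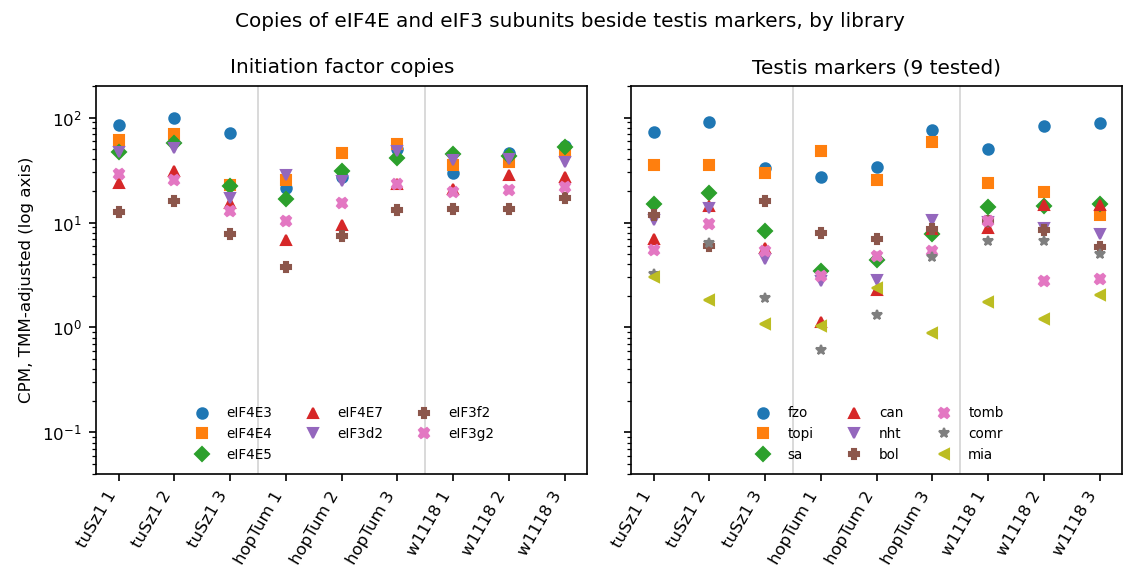
TMM-adjusted CPM on a log axis, by library in the order tuSz1, hopTum and w1118, of the 7 second copies (left) and of the 9 testis markers tested (right). In tuSz1 replicate 3 and hopTum replicates 1 and 2 most points of both panels lie lower than in the other libraries of the genotype, while eIF4E3 in tuSz1 replicate 3, at 70.9 CPM, lies above its values in every hopTum and w1118 library.

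The eIF3 copies were minor next to their main genes and did not follow them. Per kilobase, eIF3d2 stood at 4.90%, 5.71% and 1.40% of eIF3d1 in tuSz1, 1.61%, 1.71% and 3.68% in hopTum and 4.78%, 7.51% and 8.34% in w1118. The share in every hopTum library was below that in every w1118 library. For eIF3g2 against eIF3g1 the mean share was 4.29% ± 1.91 in tuSz1, 1.94% ± 1.17 in hopTum and 5.82% ± 2.23 in w1118, and for eIF3f2 against eIF3f1 it was 1.93% ± 0.869, 0.853% ± 0.574 and 3.31% ± 1.13 (SD, n = 3 each). The group of 7 copies was formed after these values were seen, so its contrast with the other factors was not tested. In hopTum, 6 of the 7 copies had a negative log2 fold change against w1118 with a median of -0.40, and 0 were called. All 14 other initiation factors with 1 transcript had a positive one with a median of 0.88. Under total count scaling all 7 copies were negative and 12 of the 14 positive. That median for the copies was -0.25 without hopTum replicate 1, -0.61 without w1118 replicate 1 and -0.85 without hopTum replicate 3. In tuSz1 the median of the copies against w1118 was -0.02, and it ran from -0.29 without tuSz1 replicate 2 to 0.33 without tuSz1 replicate 3. Copies and main genes are similar in sequence, and reads placed on the wrong one cannot be seen in these counts.

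The remaining initiation factors added no call. eIF2D averaged 100.3 ± 23.2 CPM in tuSz1, 128 ± 19.4 CPM in hopTum and 88.2 ± 42.5 CPM in w1118. eIF4G1, the main bridge, eIF5, which triggers GTP hydrolysis on eIF2, eIF4H1 and eIF4A averaged at most 4.71 CPM in any genotype, each with several listed transcripts, and were tested without a call. eIF4B had too few counts to be tested.

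Genes next to the members in the pathway were read from the same fit, from lists written with earlier results of these data known. Beside the counts below stand the shares over all tested genes. In hopTum 11.5% were called higher and 6.65% lower, and in tuSz1 9.98% higher and 6.33% lower. Of 6 other synthetase subunits and partners, 4 rose in hopTum: alpha-PheRS (log2 fold change 1.48), beta-PheRS (1.19), which together form the cytosolic phenylalanine enzyme, and AIMP1 (1.36) and AIMP3 (1.07), which hold several synthetases in one complex. alpha-PheRS was at 150.1, 141 and 278 CPM in tuSz1, 314, 258 and 218 CPM in hopTum and 141, 75.0 and 67.0 CPM in w1118. In tuSz1 1 of the 6 rose, Slimp, a mitochondrial relative of seryl-tRNA synthetase that charges no tRNA, by 1.24 (SE 0.30, edgeR adjusted p = 0.0146). Under total count scaling the tuSz1 value of Slimp was 0.42 and no longer called, and the calls of AIMP1, AIMP3 and beta-PheRS in hopTum were lost as well. The Slimp call was also lost without w1118 replicate 2.

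Of 9 mitochondrial translation factors, 6 were tested, and mIF2 (1.30) and mEFTu2 (1.26) rose in hopTum, with 0 called in tuSz1 by edgeR. Without hopTum replicate 1 or w1118 replicate 2, the hopTum calls of both factors and of the 4 synthetase subunits and partners were lost. Of 11 cytosolic elongation and release factors, 6 were tested and 0 called in either comparison with w1118, with eEF1alpha2 and eEF1gamma listed at 0. All but eEFSec have 2 or more listed transcripts. By genotype, eEF1alpha1 averaged 8.92 to 17.2 CPM and eEF2 10.8 to 13.8 CPM. As for members with several transcripts, these counts do not show whether the genes changed. Among 16 genes that control initiation, 11 were tested. Paip2, an inhibitor of the poly(A)-binding protein, fell in both mutants, at 154, 148 and 122 CPM in tuSz1, 120.5, 214 and 149 CPM in hopTum and 274, 351 and 459.8 CPM in w1118 (log2 fold changes of -1.35, SE 0.29, edgeR adjusted p = 0.00924, and -1.16, SE 0.29, edgeR adjusted p = 0.0187). Every mutant library was below every w1118 library. In hopTum the Paip2 call was lost without hopTum replicate 1, hopTum replicate 3, w1118 replicate 2 or w1118 replicate 3.

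Synthetase genes are known targets of ATF4, the factor made when eIF2 is phosphorylated under stress, which in flies is encoded by crc. Of 10 amino acid and stress genes linked to ATF4, 8 were tested. Called higher were 2 in tuSz1 and 1 in hopTum, or 25.0% and 12.5%, against 9.98% and 11.5% of all tested genes. In hopTum 6 of the 8 had a positive log2 fold change and 2 a negative one, aay (-0.04) and Shmt (-0.22). AsnS, which makes asparagine, was at 150.2, 194 and 613 CPM in tuSz1, 525, 415 and 469.9 CPM in hopTum and 77.6, 118 and 49.0 CPM in w1118, and rose in both mutants (log2 fold changes of 1.97, SE 0.50, edgeR adjusted p = 0.0204, and 2.53, SE 0.51, edgeR adjusted p = 0.00641). In tuSz1 the AsnS level rests in part on replicate 3: without it the log2 fold change was 1.08 and no longer called. The tuSz1 call was also lost without w1118 replicate 1 or w1118 replicate 3, under total count scaling (1.01, edgeR adjusted p = 0.0933) and with the replicate number as a block (1.80, edgeR adjusted p = 0.0720), while in hopTum the call held in all 15 alternative fits. Ldh, with 4 listed transcripts, rose in tuSz1 (1.85, SE 0.56, edgeR adjusted p = 0.0405). It was at 2.47, 3.76 and 8.94 CPM in tuSz1 and at 1.25, 1.67 and 1.23 CPM in w1118. The Ldh call held in 2 of 7 fits that kept every library. Of 6 fits without 1 library it held in 1, the one without tuSz1 replicate 1. Nmdmc was lower in tuSz1 than in hopTum (-1.92, SE 0.53, edgeR adjusted p = 0.0408), a call kept without tuSz1 replicate 3 or hopTum replicate 1. crc itself, with 4 listed transcripts, averaged 8.35 ± 1.79 CPM in tuSz1, 16.6 ± 4.59 CPM in hopTum and 12.1 ± 3.29 CPM in w1118 and was not called. Of the kinases that phosphorylate eIF2, PEK averaged 16.2 to 25.4 CPM by genotype and was not called, and Gcn2 was listed at 0. Both kinases have 3 listed transcripts. As for members with several transcripts, the counts of crc, PEK and Gcn2 do not show whether these genes changed.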

How the data were processed

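Raw read counts were deposited by the authors, 1 file per library with 34111 RefSeq transcripts each. Per the submitters' processing notes the tools were FastQC 0.11.8, HISAT2 2.1.0 and featureCounts 1.6.3 with the build dm6; the strand and overlap settings are not given in the sources used here. Per the labels' protocols the replicates are biological, each a pool of 20 larvae, and p-values measure the spread between such pools. Transcripts were matched to RefSeq's gene list for Release 6 plus ISO1 MT (33766 with version, 146 without, 199 unmatched with 0.421% of counts) and summed per symbol. edgeR 4.0.16 in R 4.3.3 fitted all 9 libraries with TMM factors (0.5785 to 1.3688), the default filter on low counts by genotype and the robust quasi-likelihood test, and p-values were Benjamini-Hochberg adjusted over 9106 genes per comparison with a threshold of 0.05. CPM are counts on TMM-adjusted library sizes, on which 3 counts are 0.200 to 0.3575 CPM; this floor covers counting error only. Exons came from Ensembl gene models. Alternatives were DESeq2 1.42.0 (size factors and Wald test), other scalings and filters, single-transcript genes, the replicate number as a block, 6-library fits and leaving out each library. Members, lists and alternatives were chosen with earlier results of these data known, and the split by listed transcripts and the group of 7 copies after the values were seen. Full values are given for up to 6 called members in each direction of a comparison, without overlap and with a mean of at least 5 CPM; others are given by the roles and lists. The edgeR step was also run on simulated data with known changes, in 191 of 8843 tested genes and in hopTum only. In the data 18.1% of genes were called between hopTum and w1118, so the shares recovered in the simulation need not hold there. Between hopTum and w1118 the edgeR step recovered 12.9% of the 2-fold changes, 50.8% of the 4-fold and 79.7% of the 8-fold ones. Between tuSz1 and hopTum it recovered 4.84%, 58.5% and 75%. A member that did not pass is therefore not shown to be unchanged. Figures were made with matplotlib 3.10.9.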

Additional observations from a re-analysis of the deposited data

How the results depend on the processing

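In tuSz1 against w1118 the number of members called was 2, against 1 with DESeq2 size factors or the DESeq2 Wald test, 0 without the low-count filter, without the 50 genes of highest count, with single-transcript genes only or in the fit of 6 libraries, and 0 to 5 without 1 library. Their median log2 fold change was 0.34, 0.14 with no filter and -0.47 under total count scaling. The median of all genes was 0.08, -0.12 and -0.70 in the same fits, and relative to it the members stood at 0.26, 0.26 and 0.23. In hopTum against w1118 the 16 calls became 4 under total count scaling, 10 with no filter, 10 with single-transcript genes only and 3 to 15 without 1 library. The median of 0.55 became 0.17 under total count scaling and 0.33 with no filter, or 0.60, 0.58 and 0.60 relative to all genes. In tuSz1 against hopTum the 1 call became 16 under total count scaling, 3 with the DESeq2 Wald test and 0 to 1 without 1 library, and the median of -0.24 became -0.69 under total count scaling (-0.28 and -0.30 relative to all genes) and, without 1 library, ran from -0.45 to -0.13. The cause of these changes between fits was not tested.

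Deviations from the genotype means correlated between -0.4 and 0.189 over the 9 same-numbered pairs of libraries. Pairs of unlike number were not compared, so these values do not settle whether equal numbers share a batch. With the replicate number as a block, 0, 11 and 1 members were called in the 3 comparisons, with 986, 1131 and 504 of all genes, against 1485, 1649 and 880 without it.

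Single genes called in the main fit were followed through the alternatives, members and called genes of the lists together, cell type markers such as PPO3 included. Of these 698 fits, 493 kept direction and side of the threshold, 205 lost the call and 0 reversed. These totals are therefore not those of the members alone. Of the 43 members with several transcripts, 25 had too few counts to be tested; the cause was not tested.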
